A study of Homo sapiens with 9 samples.

Results

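The genes described here encode subunits of the nuclear RNA polymerases and aminoacyl-tRNA synthetases in HL-60 clone 15, a human promyelocytic leukaemia line used to study eosinophil precursors. They were chosen by symbol, as all named genes beginning POLR followed by 1, 2 or 3 and a letter, or a single letter followed by ARS with or without a number, together with EPRS1. The rule found 29 of 14778 named genes on the arrays, 11 polymerase subunits and 18 synthetases. A further 40 protein-coding genes of the RefSeq table match the rule and are not analysed here, among them POLR1A, POLR2A, POLR3A and the synthetases that serve mitochondria alone. Each gene was read from a single Affymetrix probe set, its brightest by the mean of the 9 arrays, and all 29 were tested, since no low signals were filtered out.

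Total RNA came from 3 groups of 3 samples, which the design text calls biological replicates. The first held cells transduced with a lentiviral RhoH construct and given 100 nM 4-hydroxytamoxifen (4-OHT), here called induced RhoH. The second held the same cells without 4-OHT, uninduced RhoH, and the last held cells transduced with a GFP construct and given 100 nM 4-OHT. Per the labels, 4-OHT induces the lentiviral gene. No GFP group without 4-OHT was analysed. Between the RhoH groups, the drug and the induction of the construct therefore cannot be told apart. Induced RhoH and GFP cells both had 4-OHT, and construct and transduced population cannot be told apart there. In uninduced RhoH against GFP, drug, construct and transduced population all differ and cannot be told apart.

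RNA polymerase I makes the large ribosomal RNAs, polymerase II makes messenger RNAs, and polymerase III makes transfer RNAs and other short RNAs. Some subunits are particular to 1 enzyme and others are shared. Aminoacyl-tRNA synthetases join each amino acid to its tRNA, and in human cells several of them form a multi-synthetase complex held together by the AIMP scaffold proteins. Genes of both families are known targets of MYC, and many cytosolic synthetase genes are known targets of ATF4, the transcription factor of the amino acid response.

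RHOH, the gene of the construct, was read first as a check of the labels, although which part of the transcript its probe set reads, and so whether it reads the construct, is not known here. Its log2 signal was 5.60, 5.73 and 5.45 on the arrays labelled induced RhoH, 5.23, 5.25 and 5.15 on those labelled uninduced RhoH, and 5.90, 5.94 and 5.94 on those labelled GFP. The arrays labelled GFP were thus highest, so directions are given by label throughout. The difference between the RhoH groups, 0.38 (limma adjusted p = 0.0451), lost its call in 12 of 19 alternatives (up to 0.192), and uninduced RhoH was below GFP by a log2 fold change of -0.72 (adjusted p = 0.00042). The promyelocyte markers MPO, AZU1, PRTN3 and CTSG lay at percentile 97.9 to 100.0 of the genes by mean signal, while 10 measured markers of lymphoid, megakaryocyte, fibroblast and epithelial cells lay at 2.67 (DCN, of fibroblasts) to 85.1 (KRT18, an epithelial keratin). Correlations between arrays of a group over all probe sets were 0.974 to 0.983 for induced RhoH, 0.980 to 0.995 for uninduced RhoH and 0.995 to 0.996 for GFP. The arrays numbered 1 of both RhoH groups and induced RhoH replicate 3 stood furthest from their groups, and their deviations from the group mean had an SD over genes of 0.200 to 0.206. On the other 6 arrays that SD was 0.0904 to 0.162.

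Most of the 29 genes had their highest mean in uninduced RhoH cells and their lowest in GFP cells. The mean was highest in uninduced RhoH for 22 genes, in induced RhoH for 5 and in GFP for 2, and it was lowest in GFP for 21, in induced RhoH for 7 and in uninduced RhoH for 1. This order was not counted over all genes. Of all 14778 genes, 8837 had a higher mean in uninduced RhoH than in GFP, against 26 of the 29. For induced RhoH above GFP the counts were 8547 and 22, and for induced below uninduced RhoH 7547 and 24. Values below are log2 signals of the authors' normalized table, so a difference of 1 is a 2-fold change. All p-values are from limma, adjusted by Benjamini-Hochberg over the 14778 genes, and a gene is called at an adjusted p under 0.05. The arrays measure the RNA of all cells of a sample, so fewer expressing cells and less RNA per cell cannot be told apart.

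Between uninduced RhoH and GFP cells, 10 of the 29 genes were higher and 0 lower, where 6.01% and 9.27% of all genes were called higher and lower (15.3% together). At an unadjusted p under 0.05 the counts were 11 and 0, where 12.3% and 13.5% of all genes were higher and lower. The 10 were POLR3G, POLR1H, LARS1, POLR3B, GARS1, VARS1, EPRS1, IARS1, POLR2H and POLR3C, with log2 fold changes of 0.31 to 1.67. The median over the 29 genes was 0.14, against 0.05 over all genes tested. Uninduced RhoH arrays lay wholly above the GFP arrays for 18 of the 29 and wholly below for 0, where 19.2% and 18.1% of all genes did so (37.3% in either direction). These shares of all genes include dim genes and are not matched to the 29 for brightness. With the dimmest 20% of genes left out, 948 of 11822 were called higher, and 10 of the 29 still were. The 4 promyelocyte markers were higher in uninduced RhoH than in GFP as well, by 1.19 to 2.47, and their part in the result was not tested.

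With 4-OHT in RhoH cells, 2 of the 29 genes fell and 0 rose, where 0.751% and 3.02% of all genes were called lower and higher (3.78% together). The 2 were POLR3G and LARS1. At an unadjusted p under 0.05, 9 were lower and 0 higher, where 5.89% and 8.58% of all genes were. The median was -0.11 over the 29 genes and 0.00 over all genes tested. Without induced replicate 1 the median over the 29 was -0.04, with 18 below 0 instead of 24, and without induced replicate 3 it was -0.22. Induced arrays lay wholly below the uninduced ones for 10 of the 29, where 5.64% of all genes did so, and wholly above them for 0, where 8.9% did (14.5% in either direction). Of the 4 promyelocyte markers, CTSG fell by 0.83 on the log2 scale and the other 3 were not called.

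Between induced RhoH and GFP cells, 1 of the 29 genes, POLR3G, was higher and 0 were lower, where 1.74% and 2.75% of all genes were called (4.49% together). At an unadjusted p under 0.05, 6 were higher and 0 lower, where 7.83% and 8.54% of all genes were. The median over the 29 genes was 0.05 and that over all genes 0.03. Without induced replicate 1 the median over the 29 was 0.15, and without induced replicate 3 it was 0.00, with 15 above 0 instead of 22. Induced arrays lay wholly above the GFP arrays for 7 of the 29, where 11.1% of all genes did so, and wholly below for HARS1 alone, where 11.4% did (22.5% in either direction). The 4 promyelocyte markers were higher in induced RhoH than in GFP by 0.93 to 1.69, and their part in the result was not tested. Any 2 of the 3 comparisons share a group of arrays, so their values are given side by side and are not independent.

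**Figure D1:**
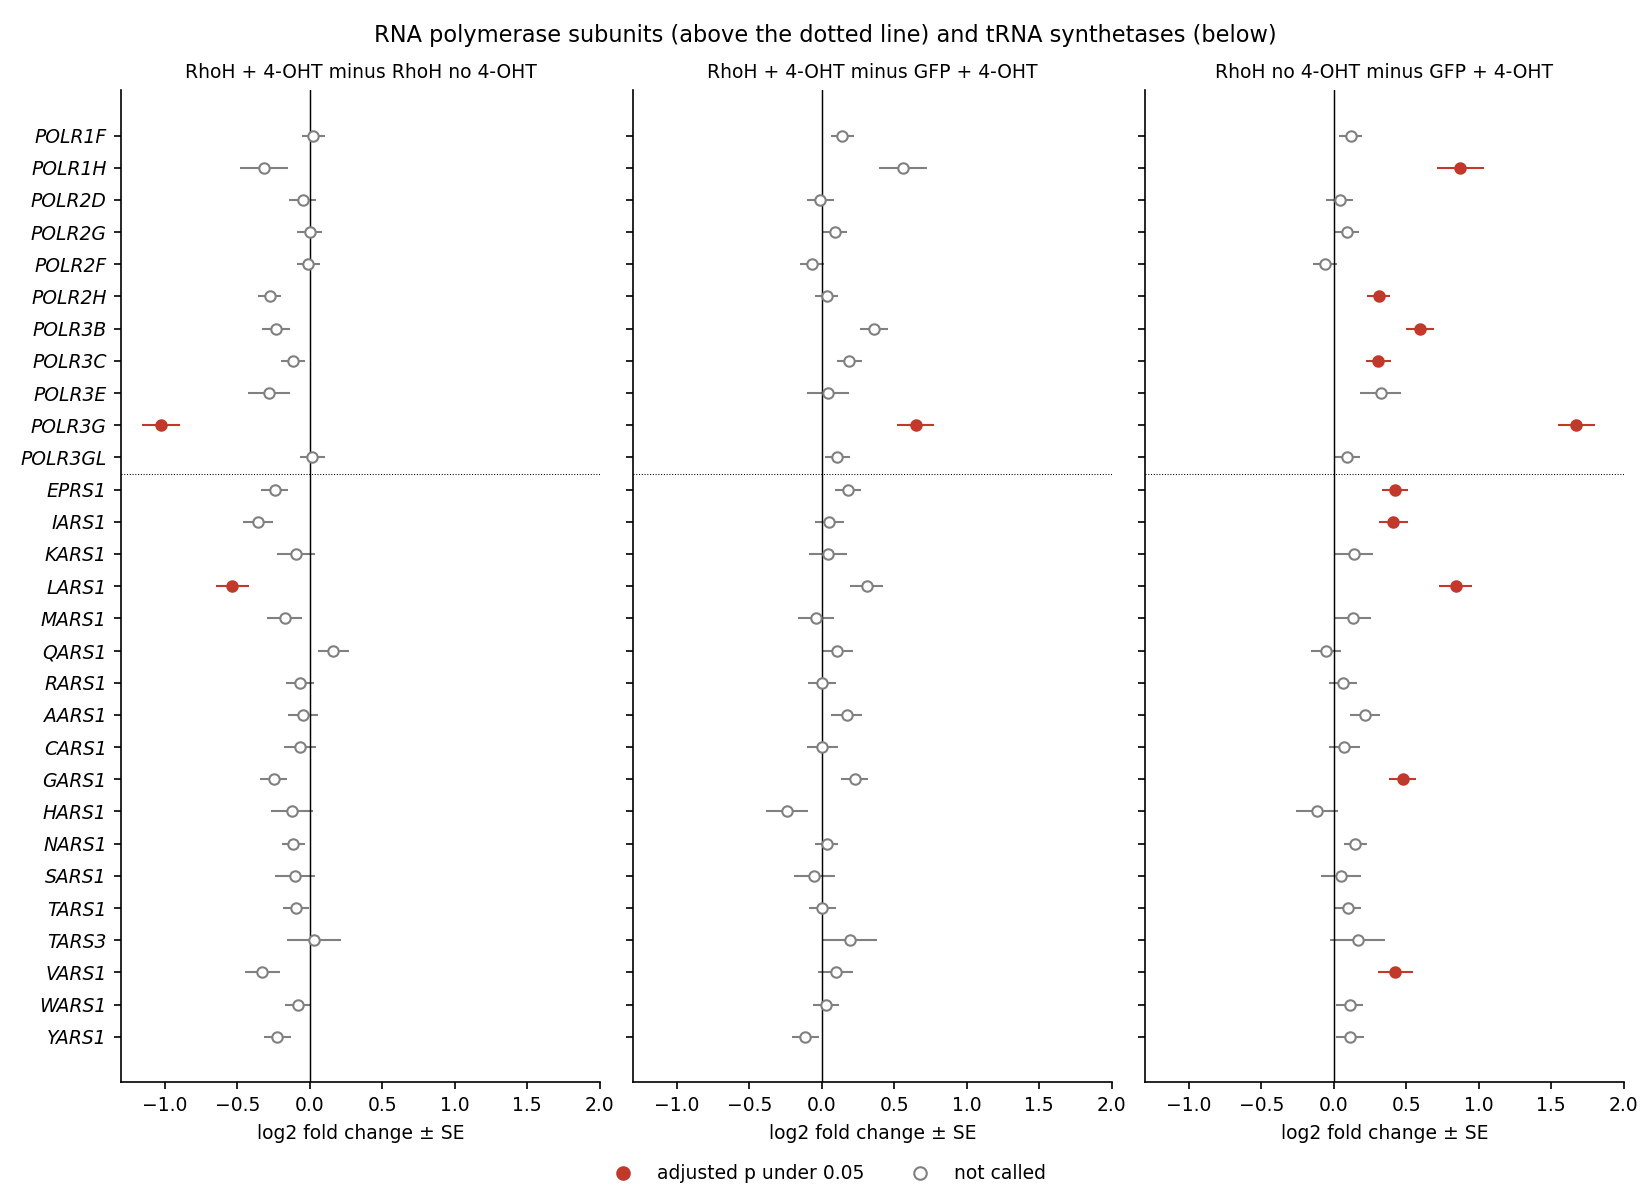
Log2 fold changes of the 29 genes with their standard errors (SE) in the 3 comparisons, polymerase subunits above the dotted line and tRNA synthetases below, with called genes filled. POLR3G was called in all 3 comparisons and LARS1 in the 2 that hold the uninduced RhoH arrays. In the comparison of uninduced RhoH with GFP, 10 genes lie at 0.31 to 1.67 and are called. Of all genes, 6.01% were called higher in that comparison and 15.3% in either direction.

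The upstream sequences of the genes were searched for the letters of 2 known elements, because the genes were described above as targets of MYC and ATF4. These are the E-box CACGTG, read by MYC with MAX, and TGATGNAA, the core of the composite element bound by ATF4 with C/EBP proteins. Windows of 250 bases before each start were taken from RefSeq (GRCh38.p14), which gave 32 windows for 23 of the 29 genes. POLR2G, POLR3G, LARS1, TARS3, VARS1 and YARS1 had none in that table. On both strands, CACGTG was found in 2 of the 32 windows (6.25%), against 6.34% of all 35116 windows and 7.61% of those of the genes tested. TGATGNAA was found in 3 of 32 (9.38%), against 3.14% of all windows and 2.13% of those of the genes tested. The matches are shown on the strand of the gene, 5′ to 3′, with the matching letters in capitals, and the ATF4 element reads there as its reverse complement. The motifs did not overlap each other.
IARS1, TGATGNAA, chr9:92293698-92293737, minus strand: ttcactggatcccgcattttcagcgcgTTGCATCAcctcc
AARS1, TGATGNAA, chr16:70289659-70289720, minus strand: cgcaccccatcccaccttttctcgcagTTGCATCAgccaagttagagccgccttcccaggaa
GARS1, TGATGNAA, chr7:30594818-30594877, plus strand: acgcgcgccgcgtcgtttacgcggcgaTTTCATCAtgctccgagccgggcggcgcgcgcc
IARS1, CACGTG, chr9:92293851-92293910, minus strand: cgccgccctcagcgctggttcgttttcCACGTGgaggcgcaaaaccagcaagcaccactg
POLR3C, CACGTG, chr1:145823977-145824036, plus strand: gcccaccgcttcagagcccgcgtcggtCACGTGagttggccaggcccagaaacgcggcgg
Of these 4 genes, IARS1, GARS1 and POLR3C were called in uninduced RhoH against GFP and AARS1 was not (0.22, adjusted p = 0.231). In that comparison 10 of the 29 genes and 15.3% of all genes were called. POLR3G, LARS1 and VARS1, which were also called, had no window. Whether a match goes with a call was not tested. A match is a description of the letters and not a binding site.

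Polymerase III subunits held the gene that differed most. POLR3G encodes a subunit that sits with POLR3C and POLR3F in the subcomplex used for initiation, and in human pluripotent cells its level is known to fall on differentiation. Its log2 signal (probe set 16987125) was 6.19, 6.48 and 6.32 in induced RhoH, 7.41, 7.55 and 7.10 in uninduced RhoH, and 5.66, 5.57 and 5.82 in GFP cells. The 3 groups of arrays did not overlap, with uninduced RhoH highest and GFP lowest. It was 2.04-fold lower in induced than in uninduced RhoH (log2 fold change -1.03, SE 0.13, limma adjusted p = 0.00218) and 1.57-fold higher in induced RhoH than in GFP (0.65, SE 0.13, adjusted p = 0.0216). In uninduced RhoH it was 3.19-fold higher than in GFP (1.67, SE 0.13, adjusted p = 1.87e-05). The fall with 4-OHT kept its call in all 19 alternatives (adjusted p 0.00152 to 0.0267). The call against GFP in induced RhoH was lost in 6 of them, with all probe sets tested (0.0534), without induced RhoH replicate 2 (0.0641) or 3 (0.0530), and without GFP replicate 1 (0.0947), 2 (0.109) or 3 (0.0506).

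POLR3GL, the paralog that takes the place of POLR3G in a second form of the enzyme, had log2 signals of 5.96, 5.96 and 6.15 in induced RhoH, 5.95, 6.10 and 5.96 in uninduced RhoH, and 5.87, 5.96 and 5.91 in GFP cells. The arrays of all 3 groups overlapped, and no comparison passed the test (log2 fold changes of 0.02, 0.11 and 0.09, each with SE 0.09). Its probe set was dim, at percentile 41.6 of the genes, and several arrays held the same value, so a small change could be missed. The value with 4-OHT turned negative in 5 of 19 alternatives, to -0.05 at the lowest. The difference between the log2 signals of POLR3G and POLR3GL on an array carries the affinity of both probe sets and is read only between groups. It averaged 0.31 ± 0.19 in induced RhoH, 1.35 ± 0.18 in uninduced RhoH and -0.23 ± 0.15 in GFP cells (SD, n = 3 each). The 3 groups did not overlap in this difference, which mostly repeats POLR3G because POLR3GL hardly varied.

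POLR3B, the second largest subunit, which forms the active centre with POLR3A, had log2 signals of 8.49, 8.59 and 8.77 in induced RhoH, 8.79, 8.92 and 8.85 in uninduced RhoH, and 8.16, 8.33 and 8.28 in GFP cells. Here too the 3 groups did not overlap. It was 1.51-fold higher in uninduced RhoH than in GFP (0.59, SE 0.10, limma adjusted p = 0.00205), a call kept in all 19 alternatives. Induced RhoH was at -0.23 against uninduced RhoH (adjusted p = 0.280) and at 0.36 against GFP (adjusted p = 0.0701). The last value passed in 4 alternatives, with array weights (0.0276), after quantile normalization again (0.00801), without induced RhoH replicate 1 (0.0482) and without both RhoH arrays numbered 1 (0.0341).

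POLR3C, the other measured subunit of the initiation subcomplex, whose E-box is shown above, had log2 signals of 9.51, 9.62 and 9.70 in induced RhoH, 9.66, 9.80 and 9.71 in uninduced RhoH, and 9.47, 9.38 and 9.40 in GFP cells. The induced and uninduced arrays overlapped and both lay above GFP. It was 1.24-fold higher in uninduced RhoH than in GFP (0.31, SE 0.08, adjusted p = 0.0336), a call lost in 6 alternatives, among them without uninduced RhoH replicate 2 or 3 or any 1 GFP array (adjusted p up to 0.127). POLR3E, a peripheral subunit of the enzyme, was not called. Its induced arrays spread from 8.68 to 9.32 and its uninduced arrays from 9.17 to 9.38, and the GFP mean was 8.97 ± 0.04 (SD, n = 3). Uninduced RhoH was at 0.32 against GFP (adjusted p = 0.189), and passed in 4 alternatives, among them with only the 6 arrays compared (0.0265) and with array weights (0.00342).

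Both measured polymerase I subunits had higher means in RhoH than in GFP cells. In uninduced RhoH against GFP 1 was called higher, where 6.01% of all genes were. POLR1H encodes the small subunit known for RNA cleavage during proofreading. Its log2 signal was 7.10, 7.09 and 7.74 in induced RhoH, 7.78, 7.50 and 7.58 in uninduced RhoH, and 6.75, 6.83 and 6.67 in GFP cells. Induced replicate 3 lay among the uninduced arrays and the other 2 induced arrays lay between the control groups. It was 1.83-fold higher in uninduced RhoH than in GFP (0.87, SE 0.17, adjusted p = 0.00513), kept in all 19 alternatives. Induced RhoH was at -0.31 against uninduced RhoH (adjusted p = 0.458), and at -0.53 without induced replicate 3, which passed (adjusted p = 0.0262). Against GFP, induced RhoH was at 0.56 (adjusted p = 0.103), and at 0.44 with array weights, which passed (adjusted p = 0.0404). POLR1F, of the stalk of the enzyme, was at 0.12 in uninduced RhoH and 0.14 in induced RhoH against GFP, with adjusted p of 0.411 and 0.439.

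None of the polymerase II subunits was called by limma in any comparison (POLR2D and POLR2G, which form the stalk; no unadjusted p was under 0.05). POLR2D lay between 10.26 and 10.50 on the 9 arrays and POLR2G between 8.29 and 8.55, with overlap in every comparison and fold changes of -0.05 to 0.09. Of the subunits shared by all 3 polymerases, POLR2H had log2 signals of 8.11, 7.96 and 8.10 in induced RhoH, 8.36, 8.30 and 8.35 in uninduced RhoH, and 8.07, 7.98 and 8.02 in GFP cells. The uninduced arrays stood above all 6 others. It was 1.24-fold higher in uninduced RhoH than in GFP (0.31, SE 0.08, adjusted p = 0.0248), a call lost with all probe sets tested and when any 1 array of these 2 groups was left out (adjusted p up to 0.103). Induced RhoH was at -0.28 against uninduced RhoH (adjusted p = 0.102), and at -0.33 with array weights, which passed (adjusted p = 0.0247). POLR2F, the other shared subunit, was dim, at percentile 42.3 of the genes, and lay between 5.98 and 6.18 on all arrays, several of which held the same value. Its second probe set gave fold changes within 0.02 of the first in each comparison, from -0.05 to -0.01.

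**Figure D2:**
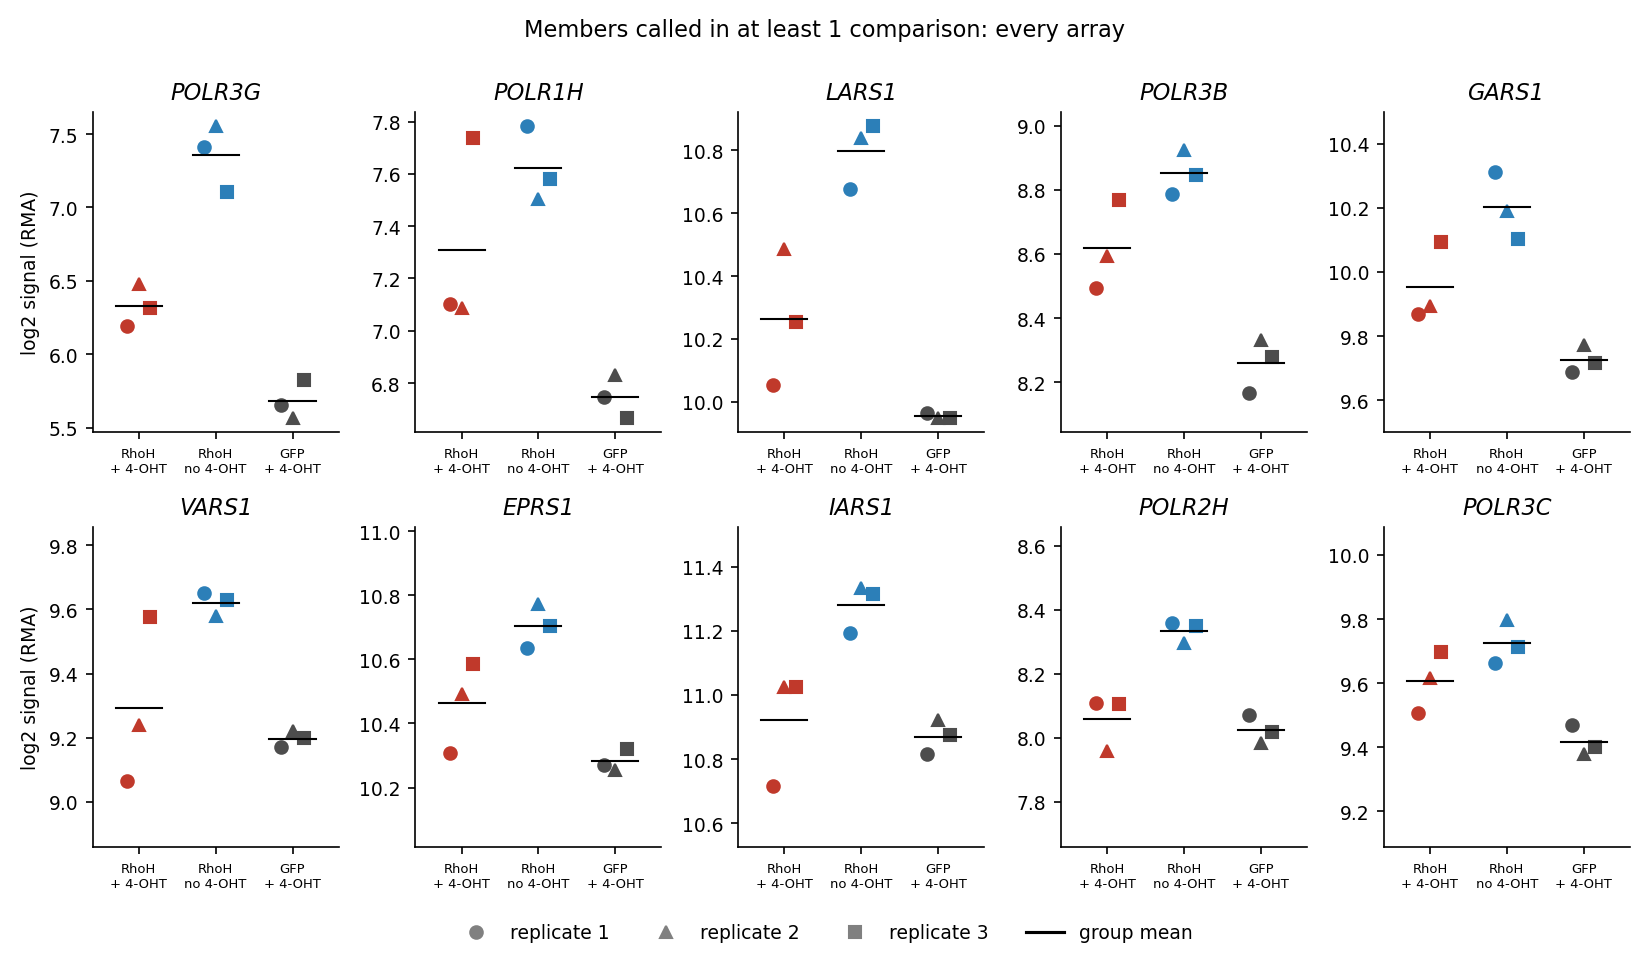
Log2 signal on every array for the 10 genes called in at least 1 comparison, with 1 symbol per replicate number and a bar at each group mean. POLR3G runs from 6.19 to 6.48 in induced RhoH, 7.10 to 7.55 in uninduced RhoH and 5.57 to 5.82 in GFP cells. In the comparison of uninduced RhoH with GFP no array overlaps for any of the 10, where 37.3% of all genes do not overlap. All 10 were called in that comparison, so this follows largely from their choice.

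Of the 7 measured synthetases of the multi-synthetase complex, LARS1, EPRS1 and IARS1 were higher in uninduced RhoH than in GFP cells and 4 were not called. Over all genes, 6.01% were called higher and 9.27% lower in that comparison. LARS1, the leucyl-tRNA synthetase, also known as a leucine sensor for mTORC1, had log2 signals of 10.05, 10.49 and 10.25 in induced RhoH, 10.68, 10.84 and 10.88 in uninduced RhoH, and 9.97, 9.95 and 9.95 in GFP cells. The groups did not overlap, and the order was that of POLR3G. It was 1.79-fold higher in uninduced RhoH than in GFP (0.84, SE 0.11, adjusted p = 0.000673), kept in all 19 alternatives. With 4-OHT it fell to 10.26 ± 0.22 in induced RhoH, against 10.80 ± 0.11 in uninduced RhoH (SD, n = 3 each), a log2 fold change of -0.53 (SE 0.11, limma adjusted p = 0.0295). That call was lost in 9 alternatives, with only the 6 arrays compared (0.140), with all probe sets tested (0.0795), without uninduced RhoH replicate 2 (0.0981) or 3 (0.123), without induced RhoH replicate 1 (0.0654) or 3 (0.0593), and without GFP replicate 1 (0.0626), 2 (0.0631) or 3 (0.0630). Against GFP, induced RhoH was at 0.31 (adjusted p = 0.201), and at 0.41 without both RhoH arrays numbered 1, which passed (adjusted p = 0.0317). With array weights it was at 0.43 and also passed (adjusted p = 0.0133).

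EPRS1, which charges both glutamate and proline tRNAs, had log2 signals of 10.31, 10.49 and 10.59 in induced RhoH, 10.63, 10.77 and 10.70 in uninduced RhoH, and 10.27, 10.25 and 10.32 in GFP cells. Uninduced arrays were above all others, and induced arrays overlapped with GFP. The difference of uninduced RhoH from GFP was 0.42 (SE 0.09, adjusted p = 0.0111), lost only without GFP replicate 2 (0.0522) among the 19 alternatives. IARS1, for isoleucine, with both elements in the window shown above, had 10.72, 11.03 and 11.03 in induced RhoH, 11.19, 11.34 and 11.31 in uninduced RhoH, and 10.82, 10.92 and 10.87 in GFP cells. It was at 0.41 in uninduced RhoH against GFP (SE 0.10, adjusted p = 0.0218), lost in 6 alternatives (up to 0.0885), with all probe sets tested and without uninduced RhoH replicate 2 or 3 or any 1 GFP array. With 4-OHT its value was -0.36 (SE 0.10) and missed the threshold, and it passed with array weights (0.0412) and with a trended, robust estimate of the spread (0.0411).

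The other 4 genes of the complex did not pass in any comparison. QARS1, for glutamine, went against the rest, at 0.16 in induced against uninduced RhoH (adjusted p = 0.597) and -0.05 in uninduced RhoH against GFP (adjusted p = 0.790). KARS1, for lysine, MARS1, for methionine, and RARS1, for arginine, were at 0.07 to 0.14 in uninduced RhoH against GFP. On induced RhoH replicate 3, KARS1 had 10.87 and QARS1 had 11.45, the highest of the 9 arrays for both. QARS1 held the same value, 11.11, on all 3 GFP arrays and on induced RhoH replicate 2, so its SD in GFP was 0.

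Of the 11 cytosolic synthetases outside the complex, GARS1 and VARS1 were higher in uninduced RhoH than in GFP cells and 9 were not called. That is 18.2% of the 11, where 6.01% of all genes were called higher and 9.27% lower (15.3% together). GARS1, the glycyl-tRNA synthetase, which also supplies the mitochondria, had log2 signals of 9.87, 9.89 and 10.09 in induced RhoH, 10.31, 10.19 and 10.10 in uninduced RhoH, and 9.69, 9.77 and 9.72 in GFP cells. The groups did not overlap, although the highest induced array, 10.09, nearly met the lowest uninduced array, 10.10. The difference of uninduced RhoH from GFP was 0.48 (SE 0.09, adjusted p = 0.00616), kept in all 19 alternatives.

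VARS1, for valine, had log2 signals of 9.06, 9.24 and 9.58 in induced RhoH, 9.65, 9.58 and 9.63 in uninduced RhoH, and 9.17, 9.22 and 9.20 in GFP cells. Induced arrays ran from below the GFP arrays up to the lowest uninduced array. It was at 0.42 in uninduced RhoH against GFP (SE 0.12, adjusted p = 0.0386), a call lost in 8 alternatives (up to 0.121), with all probe sets tested, without induced RhoH replicate 2 and without any 1 array of the 2 groups compared. The second VARS1 probe set gave 0.50 in the same comparison, and it passed with all probe sets tested (adjusted p = 0.0408). Without induced RhoH replicate 3, the value with 4-OHT was -0.47 and passed (adjusted p = 0.0186), against -0.33 with all arrays (adjusted p = 0.215). With array weights it was -0.36 and also passed (adjusted p = 0.0327).

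The remaining 9 were AARS1, CARS1, HARS1, NARS1, SARS1, TARS1, TARS3, WARS1 and YARS1. In uninduced RhoH against GFP they ran from -0.12 for HARS1, for histidine, to 0.22 for AARS1, for alanine. NARS1, for asparagine, had the brightest probe set, at 11.37 to 11.50 in induced RhoH, 11.54 to 11.58 in uninduced RhoH and 11.37 to 11.48 in GFP cells. Its uninduced arrays lay above the other 6, but the differences of -0.11 with 4-OHT (adjusted p = 0.631) and 0.15 against GFP (adjusted p = 0.277) did not pass. With array weights the value against GFP was 0.16 and passed (adjusted p = 0.0499). YARS1, for tyrosine, likewise had induced arrays wholly below the uninduced ones, at 8.66 to 8.97 against 9.04 to 9.11 (adjusted p = 0.293). POLR3GL had the dimmest probe set, with a mean of 5.98, and a signal of 1 probe set is not set against that of another as abundance.

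Averaged over the 18 synthetases, the log2 signal was 9.36, 9.58 and 9.70 on the induced RhoH arrays, 9.65, 9.74 and 9.71 on the uninduced RhoH arrays, and 9.47, 9.51 and 9.49 on the GFP arrays. Induced replicate 1 lay below all GFP arrays, and induced replicate 3 lay above uninduced replicate 1 and below the other 2 uninduced arrays, by less than the rounding for 1 of them. Induced replicate 1 was the lowest of the 9 arrays for 12 of the 18 synthetases, and induced replicate 3 was the highest for 6. Without induced replicate 1, the median fold change with 4-OHT over the synthetases was -0.02 instead of -0.11, and the count below 0 was 10 instead of 16 of 18. Without induced replicate 3 the median was -0.23. The median SD within a group over the synthetases was 0.19 in induced RhoH, 0.08 in uninduced RhoH and 0.04 in GFP cells, and over all genes it was 0.16, 0.13 and 0.07 in that order.

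Over the 11 polymerase subunits the mean log2 signal was 7.91, 7.99 and 8.11 on the induced RhoH arrays, 8.19, 8.25 and 8.19 on the uninduced RhoH arrays, and 7.80, 7.83 and 7.81 on the GFP arrays. These 3 groups did not overlap. The separation of induced from uninduced RhoH in this mean depends on POLR3G, which had the largest fall (-1.03). Without POLR3G in the mean, induced replicate 3 lies above uninduced replicate 1. Gene by gene, induced arrays lay wholly below the uninduced ones for 3 of the 11, where 5.64% of all genes did. For the other 8 they overlapped. Without induced replicate 1 the median fold change with 4-OHT over the subunits was -0.07, against -0.12 with all arrays.

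**Figure D3:**
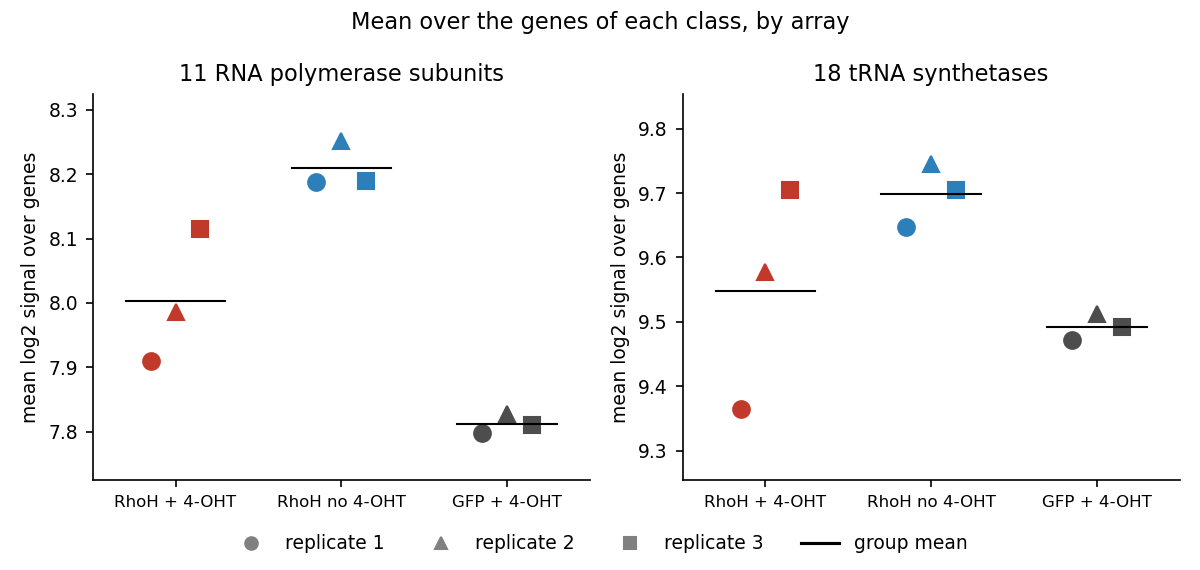
Mean log2 signal over the 11 polymerase subunits (left) and the 18 tRNA synthetases (right) on each array, with a bar at each group mean. Induced RhoH arrays run from 9.36 to 9.70 for the synthetases, from below the GFP arrays to above 1 of the 3 uninduced RhoH arrays, and from 7.91 to 8.11 for the polymerase subunits, above all GFP and below all uninduced RhoH arrays. The separation of the 2 RhoH groups for the polymerase subunits depends on POLR3G.

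Genes of the same pathways outside the rule were taken from 6 lists. Of 25 polymerase I and III factors, 5 were measured, of which 2 were called lower with 4-OHT in RhoH cells, and 2 higher in uninduced RhoH than in GFP, where 0.751% and 6.01% of all genes were. MYC, which drives genes of all 3 polymerases, had log2 signals of 10.62, 10.83 and 11.05 in induced RhoH, 11.64, 11.67 and 11.73 in uninduced RhoH, and 10.17, 9.97 and 10.08 in GFP cells. Its groups did not overlap, in the same order as for POLR3G and LARS1. The log2 fold changes were -0.85 with 4-OHT (limma adjusted p = 0.00287), 0.76 for induced RhoH against GFP (adjusted p = 0.00469) and 1.61 for uninduced RhoH against GFP (adjusted p = 9.37e-06), and all were kept in 19 alternatives.

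GTF3A, the polymerase III factor for the small ribosomal RNA genes, had 9.72, 9.90 and 9.94 in induced RhoH, 10.21, 10.28 and 10.20 in uninduced RhoH, and 9.76, 9.83 and 9.83 in GFP cells. It was at -0.37 with 4-OHT (adjusted p = 0.0402), a call lost in 11 of 19 alternatives, all but 1 of those that left out a single array among them (up to 0.175). In uninduced RhoH against GFP it was at 0.42 (adjusted p = 0.00747, kept in all 19). TBP, RRN3 and MAF1, the last a repressor of polymerase III, did not pass in any comparison.

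Of 10 polymerase assembly factors, 9 were measured and 0 were called in either comparison of induced RhoH by limma (unadjusted p under 0.05 gave 1 higher and 2 lower with 4-OHT, and 0 in each direction against GFP). With 4-OHT, RUVBL2 passed as lower with array weights (-0.62, adjusted p = 0.0133) and without induced RhoH replicate 3 (-0.78, adjusted p = 0.00766), and GPN3 passed as higher after quantile normalization again (0.36, adjusted p = 0.0404). RUVBL2, an ATPase of the chaperone that assembles the polymerases, was higher in uninduced RhoH than in GFP by 0.85 (adjusted p = 0.0111). GPN3, a GTPase of polymerase import, was lower there by a log2 fold change of -0.50 (adjusted p = 0.0259). These were the 2 called of the 9, where 6.01% of all genes were called higher and 9.27% lower. GPN3 lost its call in 6 alternatives, among them without uninduced RhoH replicate 1 or 2 or any 1 GFP array (up to 0.0974). None of 5 measured polymerase II general factors and 2 of mitochondrial transcription was called by limma in the 3 comparisons. At an unadjusted p under 0.05, the general factors had 1 lower with 4-OHT and 1 higher in uninduced RhoH against GFP, and the mitochondrial pair had 1 lower with 4-OHT.

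Of 6 measured partners of the synthetases, SEPHS1 and DTD1 were higher in uninduced RhoH than in GFP, where 6.01% of all genes were. SEPHS1, a homologue of the enzyme that makes selenophosphate, had 9.33, 9.40 and 9.74 in induced RhoH, 9.74, 9.76 and 9.69 in uninduced RhoH, and 8.91, 8.87 and 8.84 in GFP cells. Both RhoH groups were above GFP on every array, by 0.62 in induced RhoH (adjusted p = 0.0113) and 0.86 in uninduced RhoH (adjusted p = 0.000466). The call in induced RhoH was lost without GFP replicate 2 or 3 (up to 0.0626). DTD1, which removes D-amino acids from tRNA, was at 0.60 in uninduced RhoH (adjusted p = 0.0224), lost in 6 alternatives, among them without uninduced RhoH replicate 1 or 2 or any 1 GFP array (up to 0.0914). AIMP1, a scaffold of the multi-synthetase complex, lay at 0.07 in uninduced RhoH against GFP (adjusted p = 0.685).

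Among genes of the amino acid response, ASNS, PHGDH and PSAT1 were higher in both RhoH groups than in GFP cells. Of 16 measured out of 24 listed, 7 were higher in uninduced RhoH than in GFP and 6 in induced RhoH, with 0 lower in both, and 2 fell with 4-OHT, where the shares of all genes were 6.01%, 1.74% and 0.751%. The median was 0.24 in uninduced RhoH against GFP, 0.24 in induced RhoH against GFP and -0.17 with 4-OHT, where all genes tested had 0.05, 0.03 and 0.00 in that order. ASNS, the asparagine synthetase, had 7.51, 7.64 and 7.97 in induced RhoH, 8.45, 8.25 and 8.19 in uninduced RhoH, and 6.64, 6.87 and 6.85 in GFP cells. Again the groups did not overlap. It was at 0.92 in induced RhoH (adjusted p = 0.00373) and 1.51 in uninduced RhoH (adjusted p = 4.07e-05) against GFP, both kept in all 19 alternatives.

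ATF5, a transcription factor of the same response, was at 0.80 in induced RhoH (adjusted p = 0.0155) and 1.52 in uninduced RhoH (adjusted p = 9.45e-05) against GFP. Against uninduced RhoH, induced RhoH was at -0.59 for ASNS (adjusted p = 0.0384) and -0.72 for ATF5 (adjusted p = 0.0280). Both of these calls were lost in 11 alternatives, including when any 1 array was left out other than induced RhoH replicate 3 for ASNS (up to 0.168), and other than that array or uninduced RhoH replicate 3 for ATF5 (up to 0.147). The call of ATF5 for induced RhoH against GFP was lost without induced RhoH replicate 3 or any 1 GFP array (up to 0.0785).

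The serine synthesis genes PHGDH and PSAT1 and the lipoprotein receptor gene VLDLR were higher than in GFP in both RhoH groups. In induced RhoH they were at 1.07, 1.02 and 0.84 in that order, and in uninduced RhoH at 1.22, 1.36 and 1.29, and these calls were kept in all 19 alternatives. SHMT2, for serine to glycine conversion, was at 0.34 in induced RhoH (adjusted p = 0.0412, lost in 12 alternatives, up to 0.174) and 0.53 in uninduced RhoH (adjusted p = 0.00142), and CTH, for cysteine synthesis, was at 0.98 in uninduced RhoH (adjusted p = 0.00222). ATF4 itself was at 10.35 ± 0.11 in induced RhoH, 10.41 ± 0.07 in uninduced RhoH and 10.29 ± 0.02 in GFP cells (SD, n = 3 each) and did not pass in any comparison. DDIT3, another gene of the response, was at -0.44 in uninduced RhoH against GFP (adjusted p = 0.0645).

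**Figure D4:**
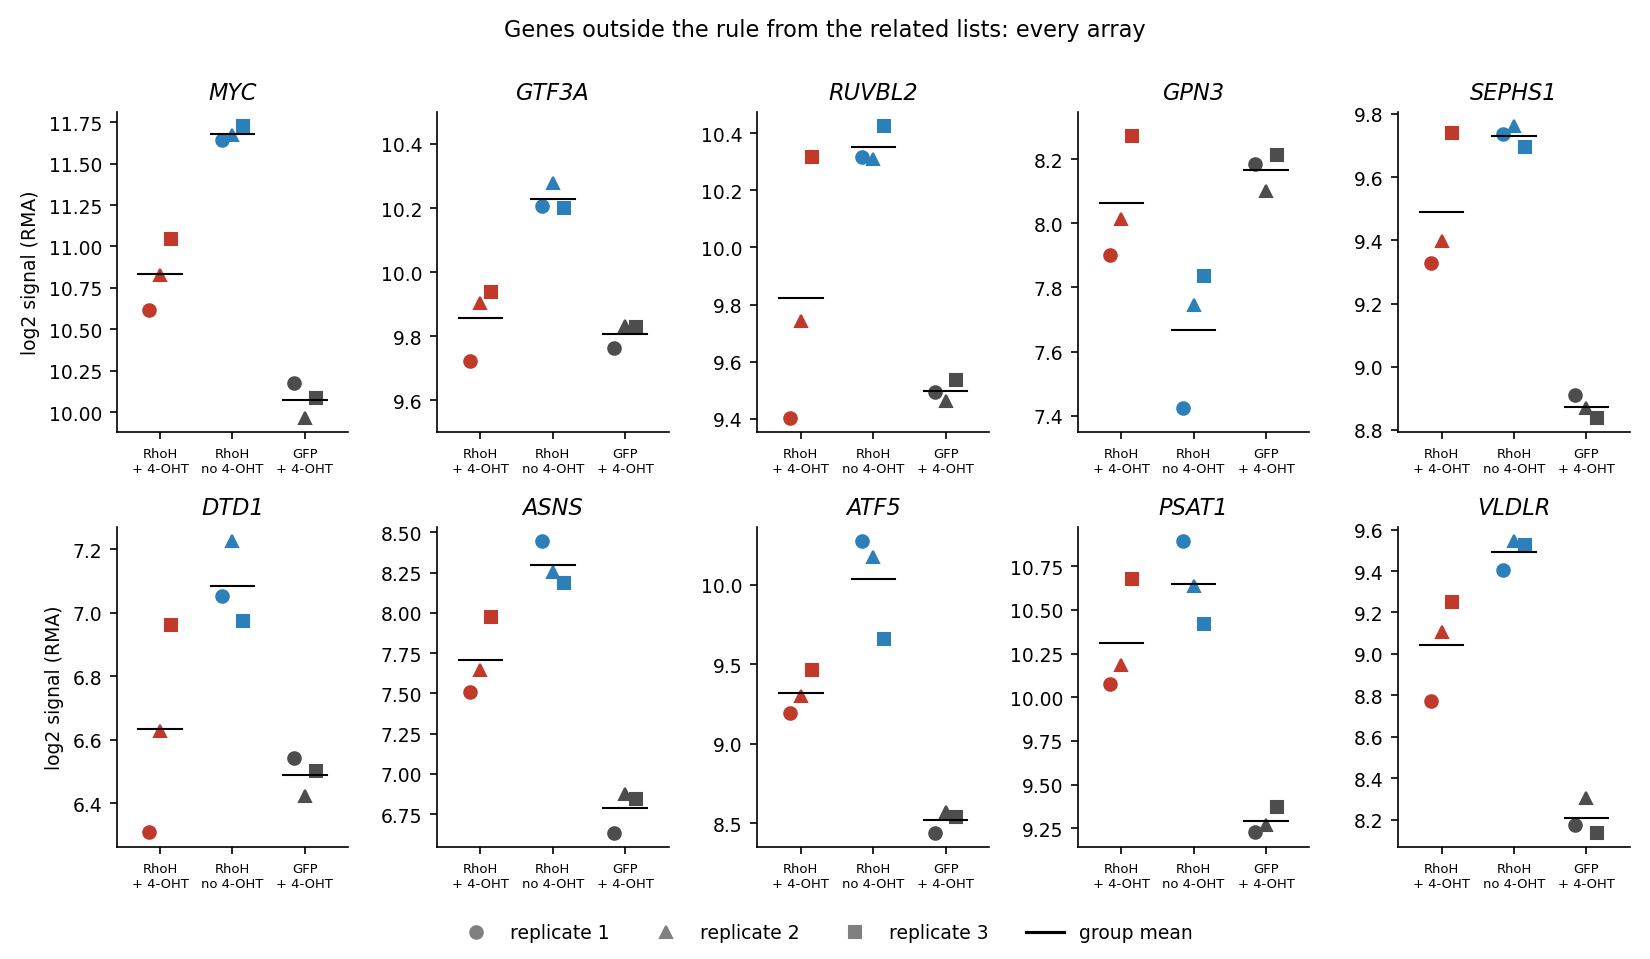
Log2 signal on every array for 10 called genes of the related lists, with 1 symbol per replicate number and a bar at each group mean. MYC lies at 10.62 to 11.05 in induced RhoH, 11.64 to 11.73 in uninduced RhoH and 9.97 to 10.17 in GFP cells, and GPN3 alone of the 10 has its lowest mean in uninduced RhoH.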

How the data were processed

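The values deposited by the authors are log2 signals of 43550 probe sets on 9 arrays. RMA, limma and Affymetrix Power Tools are the tools that the submitters' processing notes name, and no version is given in the sources used here. Background correction, quantile normalization and probe summary are the steps of RMA, so low signals are compressed and small changes of dim genes are understated. The number of arrays limits the precision. Probe sets were named through the platform annotation, 15659 with 1 symbol, 0 with several and 27891 with none, and symbols were updated by Entrez identifier through RefSeq (GRCh38.p14). For genes with several probe sets the one with the highest mean was used, which left 14778 genes, with no filter on low values.

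Group means over all 9 arrays were fitted with limma 3.58.1 in R 4.3.3 (6 residual degrees of freedom, prior 3.86), tested on simulated data first. Replicates measure the spread between samples. Genes named are those called in any comparison, POLR3B, POLR3GL, the brightest and dimmest probe set, and up to 4 called genes per related list and comparison, and further genes were named after their values were seen. Related lists hold genes of polymerase I and III factors, polymerase II factors, assembly, mitochondrial transcription, synthetase partners and the amino acid response. The members and lists were chosen with earlier results of these data known.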

Additional observations from a re-analysis of the deposited data

How the results depend on the processing

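Genes of the rule called under 19 alternatives were counted again, changing 1 choice at a time. The 2 lower with 4-OHT in RhoH cells were 5 with array weights, 1 with only the 6 arrays compared and 1 with all probe sets tested, and 1 to 3 when 1 array was left out. The 1 higher in induced RhoH than in GFP was 4 with array weights, 3 without both RhoH arrays numbered 1, 2 after quantile normalization again, 0 with all probe sets tested, and 0 to 2 when 1 array was left out. The 10 higher in uninduced RhoH than in GFP were 6 with all probe sets tested and 5 to 10 when 1 array was left out (6 without uninduced replicate 2 or 3 or GFP replicate 1 or 3, and 5 without GFP replicate 2). No other alternative moved these counts by over 1.5 times, and in none did a gene of the rule pass in the opposite direction. Over all genes, those called lower with 4-OHT went from 111 to 388 with array weights and to 8 with only the 6 arrays compared. For induced RhoH against GFP, those called higher went from 257 to 509 with array weights and 512 without both RhoH arrays numbered 1. For uninduced RhoH against GFP they went from 888 to 528 without GFP replicate 2. With all probe sets tested, these were 59, 235 and 1075 of 43550. The cause of the shifts in these counts was not tested.

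The value of POLR3GL with 4-OHT turned negative with array weights (-0.018), with arrays centred (-0.00267), and without uninduced replicate 1 (-0.00609) or 3 (-0.00464) or induced replicate 3 (-0.047), and was 0.067 without uninduced replicate 2, the range when 1 array was left out. For induced RhoH against GFP, POLR2H turned negative with array weights (-0.022), and POLR3E (-0.11), VARS1 (-0.044) and DTD1 (-0.021) without induced replicate 3, whereas VARS1 was at 0.21 and DTD1 at 0.31 without induced replicate 1. None of these had been called.

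With the replicate number as a block the counts were 2, 1 and 10 in the 3 comparisons, as without it. Deviations of same-numbered arrays correlated at 0.54, 0.37 and 0.07 between the RhoH groups, and those of different-numbered arrays at -0.50 to 0.40. The median log2 signal was 5.55 on both RhoH arrays numbered 1 and 5.43 to 5.48 on the others. Whether the arrays numbered 1 share an effect was not tested, and the main fit used no pairing.

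Over all genes, 558 were called with 4-OHT, 190 with only the 6 arrays compared, 950 with array weights, 953 after quantile normalization again and 304 to 666 leaving out 1 array. Normalized again, 588 of 953 were higher, against 447 of 558. For induced RhoH against GFP 664 became 1176 with array weights and 279 to 861 leaving out 1 array, and for uninduced RhoH against GFP 2258 became 4326 and 1450 to 2670.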
